A study of Mus musculus with 2 samples.

Results

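The unfolded protein response and the chaperones of the endoplasmic reticulum (ER) were examined in incisors of newborn wild-type and *Sox21* KO mice. The genes were taken by name, as *Hspa5*, *Hsp90b1*, *Dnajc3*, *Pdia4*, *Sdf2l1*, *Creld2*, *Herpud1*, *Xbp1*, *Atf4* and *Ddit3*. All 10 were found among the 21244 genes that have a probe and a reference symbol, through 11 probes that occupy 20 spots. RNA of the incisor was hybridized to Agilent one-colour microarrays, with 1 array for each genotype, so no difference below has a replicate check and no test was run. The wild-type mice of the study were C57BL/6J, the study credits its *Sox21* KO line to the same source as a reporter mouse with GFP inserted at the *Sox21* locus, and beyond a soft diet for the KO mice no treatment is named for either genotype. The strain background of the KO mice is not given in the sources used here. The sample labels give day 0 after birth and the study's methods give the day after. The labels name the tissue only as incisor, while the series text speaks of both isolated ameloblasts and whole tooth germs, and no source states how many animals entered a sample.

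Proteins that leave the cell are folded in the ER, where chaperones hold unfinished chains and isomerases form their disulfide bonds. When folding falls behind, the sensors IRE1, PERK and ATF6 in the ER membrane switch on the unfolded protein response, which raises the supply of chaperones through the transcription factors XBP1, ATF4 and ATF6 and slows the entry of new protein. Ameloblasts, the epithelial cells that lay down enamel, secrete large amounts of amelogenin, ameloblastin and enamelin, and odontoblasts and bone cells secrete collagen, so all of these cells depend on folding in the ER.

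The ATF6 and XBP1 proteins act through the ER stress response element, ERSE, which was searched as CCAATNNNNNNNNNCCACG on both strands in RefSeq promoter windows of GRCm38.p6, from 250 bases before to 50 bases after each annotated start. It occurred in the windows of 4 of the 10 genes, *Hspa5*, *Hsp90b1*, *Dnajc3* and *Creld2*, against 0.119% of all 32851 windows, or 39. *Hsp90b1* held a pair of matches, one on each strand. *Herpud1* held the shorter element ERSE-II, in which ATTGG and CCACG stand 1 base apart and which occurred in 0.0365% of the windows. The shorter motifs TGACGTG, the core of the XBP1 element UPRE, and TGATGCAA, an ATF4 and C/EBP element called CARE, were present in 2.01% and 0.895% of windows, and among the 10 genes in *Hspa5* and in *Herpud1*, respectively. ERSE and ERSE-II share the letters CCACG, and within the windows of the 10 genes no 2 matches overlapped. These matches are descriptions of letters, and binding was not measured. *Pdia4*, *Sdf2l1*, *Xbp1*, *Atf4* and *Ddit3* held neither ERSE nor ERSE-II. The stretches are shown because they hold the ERSE of 4 of the genes and the ERSE-II of *Herpud1*. The ends of each ERSE or ERSE-II are in capitals (CCAAT or ATTGG, and CCACG or CGTGG), read along the strand of the gene.
Hspa5, chr2:34772005-34772063, plus strand: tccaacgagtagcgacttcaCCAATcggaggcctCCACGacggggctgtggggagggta
Hsp90b1, chr10:86705513-86705676, minus strand: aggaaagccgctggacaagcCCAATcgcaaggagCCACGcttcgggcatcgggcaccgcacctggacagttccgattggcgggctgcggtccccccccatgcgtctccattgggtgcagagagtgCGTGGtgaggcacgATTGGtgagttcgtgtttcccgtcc
Dnajc3, chr14:118937807-118937865, plus strand: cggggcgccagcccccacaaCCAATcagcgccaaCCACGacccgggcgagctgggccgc
Creld2, chr15:88819500-88819558, plus strand: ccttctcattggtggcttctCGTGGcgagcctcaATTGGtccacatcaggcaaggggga
Herpud1, chr8:94386357-94386407, plus strand: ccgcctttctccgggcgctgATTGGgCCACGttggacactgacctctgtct

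**Figure D1:**
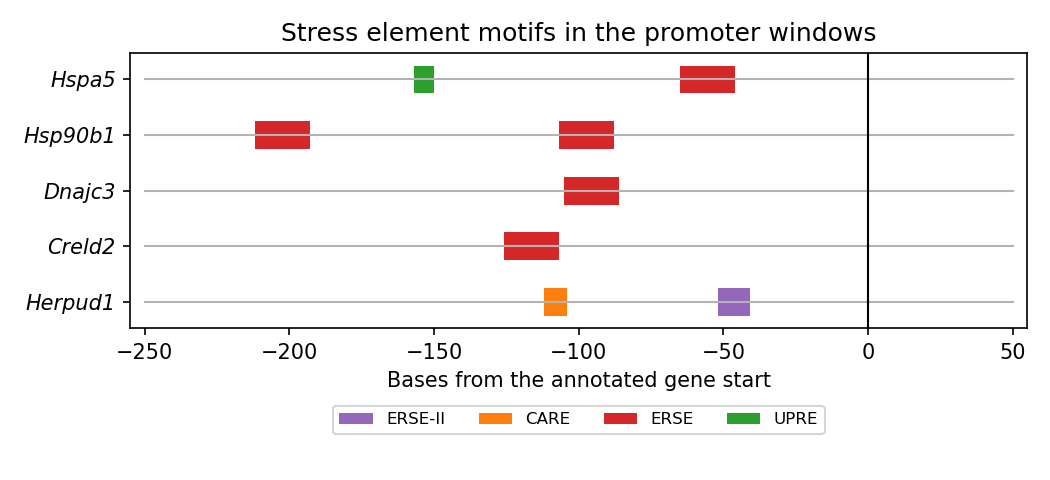
Positions of the searched motifs in the promoter windows of the 5 genes with an ERSE or ERSE-II, along an axis of bases from the annotated gene start at 0. Each bar spans 1 match. The ERSE closest to a start is that of *Hspa5*, which begins 65 bases before it, and the farther match of *Hsp90b1* begins 212 bases before.

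For each probe, the processed signal of the scanner software was divided by the 75th percentile of its array, 268 for wild-type and 276 for *Sox21* KO, and the log2 ratio was taken as KO minus wild-type. The ratios of the 10 genes are given with the error that the scanner's own model assigns to them, which is mostly a fixed share of the signal and describes the spot, not the animals. The repeat spots of 283 probes gave a typical SD of 0.08 for the log2 ratio. Genes were called measured if a probe passed the scanner's test of being well above background in both hybridizations, as was true of all 10 genes and of 13796 genes in all. Saturated spots numbered 0. *Sox21* itself was lower in the KO sample at both of its probes but still well above background there. Its processed signals were 1362 in wild-type and 659.1 in KO at the brighter probe, a log2 ratio of -1.09, and 285.6 and 103.2 at the other, a log2 ratio of -1.51. Where these probes lie relative to the altered part of the locus was not examined.

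Of the 10 genes, 9 had a lower normalized signal in *Sox21* KO incisor (8 when scaled on the median of each array) and *Herpud1* was higher. For comparison, 47.6% of all measured genes were lower. Taken over the 10 genes, the log2 ratio had a median of -0.28, whereas over all measured genes it was 0.01, with an interquartile range from -0.13 to 0.16. Below this range lay 7 of the 10 genes. All 10 ratios were larger in size than the SD between repeat spots, as were 68.7% of all measured genes, and 8 were larger than 2 times that SD, as were 44.3%. The differences were small in size. *Dnajc3* was the 1 gene at least 1.5-fold lower, a size reached by 2.99% of measured genes, and 0 of the 10 were at least 1.5-fold higher, against 3.2%. None was 2-fold apart in either direction (0 of 10), as 1.41% of measured genes were. The ratio exceeded the scanner error for 7 of the 10 genes, against 33.9% of all measured genes. It exceeded 2 times that error for 2, *Dnajc3* and *Sdf2l1*, against 10.8%. Genes of this kind are regulated together, so they are not independent of each other. In whole tissue, fewer secretory cells and less RNA per cell cannot be told apart.

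**Figure D2:**
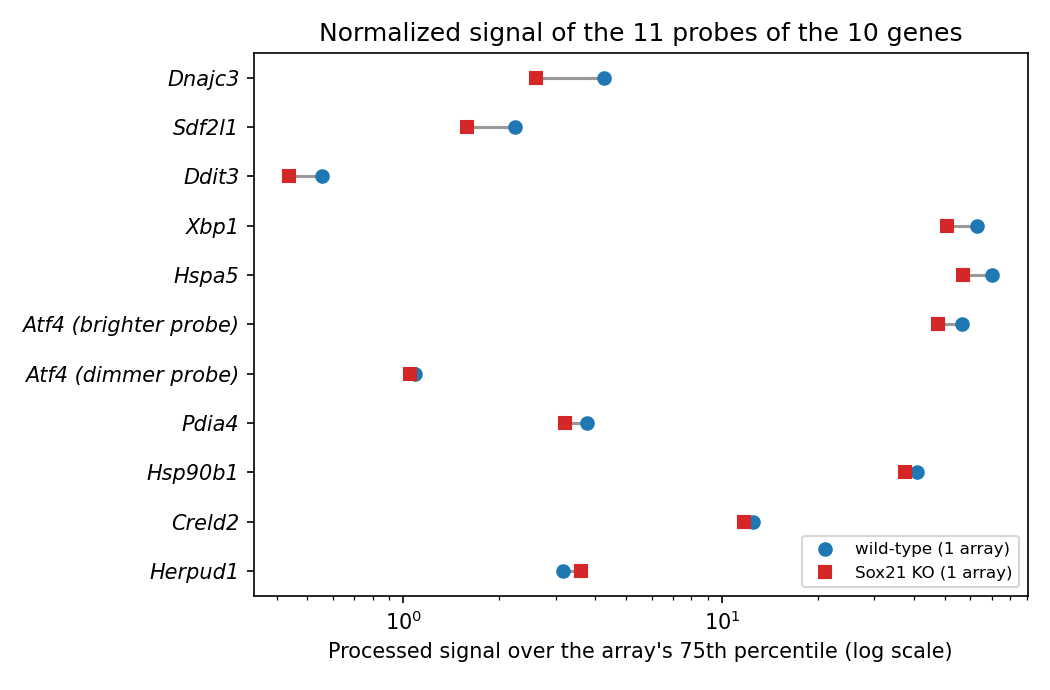
Normalized signal (log axis, in multiples of the array's 75th percentile) of the 11 probes on the wild-type array (circles) and the *Sox21* KO array (squares), with 1 array per genotype and a line joining both values of a probe. The KO value lies to the left for every probe except that of *Herpud1*. Positions are comparable within a row, not between probes.

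Among the chaperones, *Hspa5* encodes BiP, the Hsp70 of the ER, which binds unfolded chains and holds the stress sensors inactive. Its probe (mm9 chr2:34631913-34631972) read 18809 in wild-type and 15712 in KO as processed signal, or 70.2 and 57.0 after normalization. The log2 ratio was -0.30 ± 0.20 (scanner error), a 1.23-fold lower signal in the KO incisor. *Hsp90b1* encodes GRP94, the Hsp90 of the ER, and its probe (mm9 chr10:86153770-86153829) gave 10953 and 10274. With a log2 ratio of -0.13 ± 0.20, *Hsp90b1* differed by less than the scanner error.

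*Dnajc3* encodes P58IPK, a J-domain partner of BiP that also restrains PERK, and it differed most of the 10 genes. The signal of its single probe (mm9 chr14:119378131-119378190) was 1142 in wild-type and 719.5 in KO, which is 4.26 and 2.61 after normalization. This is a log2 ratio of -0.71 ± 0.20, 1.63-fold lower, and 1.86% of measured genes had a ratio as low or lower. *Dnajc3* lies 0.745 Mb from the brighter *Sox21* probe on chromosome 14, in the mm9 positions of the files. Whether its ratio relates to the position beside the targeted locus was not tested.

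*Sdf2l1* encodes another ER-resident partner of BiP and came second. Its probe (mm9 chr16:17130426-17130485) had a processed signal of 599.7 in wild-type and 436.4 in KO, a log2 ratio of -0.50 ± 0.20 and a 1.41-fold difference. As low or lower were 4.37% of measured genes. *Pdia4*, a protein disulfide isomerase also known as ERp72, had signals of 1009 and 886.2 at mm9 chr6:47746516-47746575. Its log2 ratio of -0.23 ± 0.20 was just past the scanner error.

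*Creld2*, an ER protein with EGF-like domains that is induced when misfolded matrix proteins accumulate, offers a closer look at the technical spread, since its probe (mm9 chr15:88656997-88657056) is spotted 10 times. The processed signal ranged from 3205 to 3493 in wild-type, with a median of 3360. On the KO array it ranged from 3117 to 3341, with a median of 3235, so the spots of both arrays overlap before scaling. After scaling, the log2 ratio was -0.09 ± 0.06 (SD over 10 spots), smaller than the scanner error of 0.20, and all 10 spots lay below 0, between -0.21 and -0.01. These spots repeat 1 hybridized sample, and the direction depends on the scaling, since with the median of each array in place of the percentile the value was 0.01.

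*Herpud1* encodes HERP, a membrane protein that assembles the machinery for degrading misfolded ER proteins, and was the exception. Its signal (mm9 chr8:96919117-96919176) was 846.3 in wild-type and 996.3 in KO. The log2 ratio was 0.19 ± 0.20, within the scanner error. The element shown above for *Herpud1* is ERSE-II in place of ERSE, and whether this relates to its ratio was not tested.

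Among the transcription factors, *Xbp1* is the target of IRE1, which splices its mRNA into the active form. The array measured it with 1 probe (mm9 chr11:5425816-5425875), and splicing was not read. The processed signal was 16860 in wild-type and 13946 in KO, a log2 ratio of -0.32 ± 0.20 and a 1.24-fold lower value. *Atf4*, whose protein is made in larger amounts when PERK slows translation in general, had 2 probes of unlike brightness. The brighter (mm9 chr15:80087902-80087961) gave 15131 and 13036, a log2 ratio of -0.26 ± 0.20, and the dimmer (mm9 chr15:80086639-80086698) gave 291.2 and 288.1, a log2 ratio of -0.06 ± 0.21. *Ddit3* encodes CHOP, a factor of prolonged stress induced by ATF4. Its probe, which the file places across a span of 304 bases (mm9 chr10:126732518-126732821), had signals of 148.4 and 120.8. *Ddit3* had a log2 ratio of -0.34 ± 0.22, a 1.26-fold lower signal in the KO sample.

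**Figure D3:**
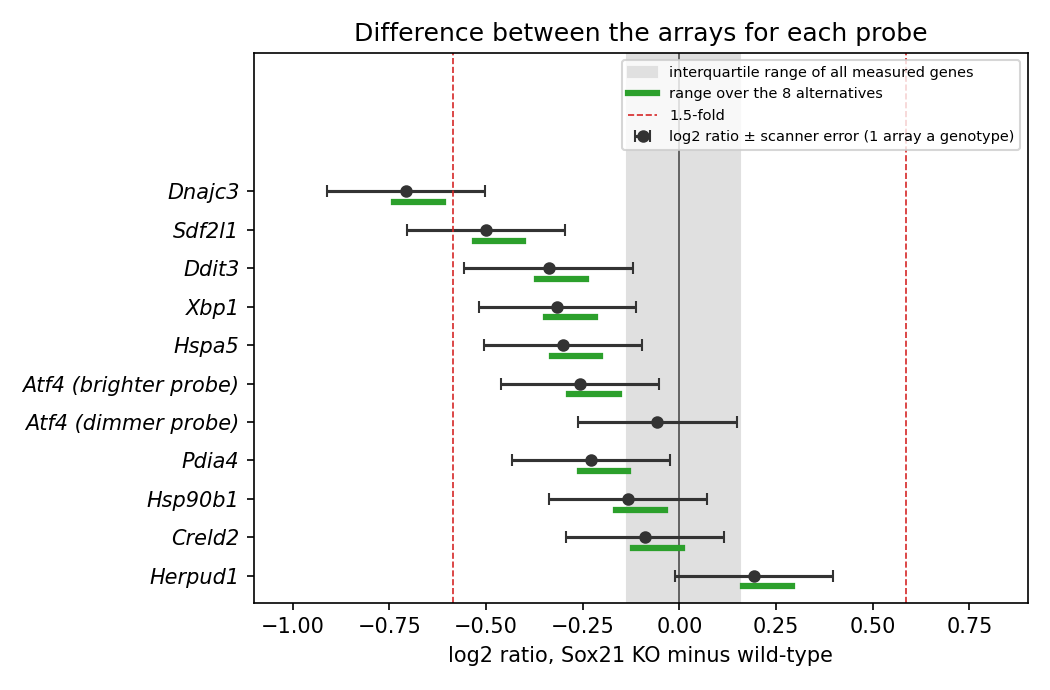
Log2 ratio (*Sox21* KO minus wild-type) of each of the 11 probes, as points with bars for the scanner error, on a horizontal axis with 0 for no difference. Green bars give the range of a gene's ratio over 8 alternative ways of processing, the grey band is the interquartile range of all measured genes, and dashed lines mark 1.5-fold. The point of *Dnajc3*, at -0.71, is the only one beyond a dashed line, and the alternatives of *Creld2* reach just above 0.

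The sensors that start the response and the proteases that release ATF6 were listed together, with 6 genes measured. The 4 measured sensors were lower and the 2 proteases were higher. Scaled on the median of each array, 2 of the 6 were lower and 4 higher, where *Atf6* and *Atf6b* turn. Of all measured genes, 47.6% were lower, and 30.7% when scaled on the median. *Ern1*, which encodes IRE1, had signals of 1008 in wild-type and 588.6 in KO, with a log2 ratio of -0.82 ± 0.20 and a 1.76-fold lower value. *Eif2ak3*, encoding PERK, had signals of 734.3 and 575.0 and a log2 ratio of -0.39 ± 0.20. *Atf6* and *Atf6b* were within the scanner error, at -0.05 and -0.04. Of the proteases that release ATF6 at the Golgi, *Mbtps1* had a log2 ratio of 0.11 and *Mbtps2* of 0.52, the latter from a dim probe with signals of 96.7 and 142.4. *Ern2*, the IRE1 form of mucosal epithelium, was not well above background on both arrays. Members of the CREB3 family, which are cut from the ER membrane like ATF6, were higher in 4 of 5 cases, and in 3 to 5 of 5 under the alternatives. *Creb3l1*, known as OASIS and active in bone, had a log2 ratio of 0.25, and *Creb3l3* of 0.43 at a dim probe. *Creb3l4* had 0.09, *Creb3* 0.00 and *Creb3l2* -0.10. Past 1.5-fold were 0 of these 5, against 2.99% of all measured genes lower and 3.2% higher.

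The counts of the following lists are given also as scaled on the array median, to be read against the same 30.7%. Other ER chaperones were mostly lower under both. Of 18 listed, 17 were measured, and 14 were lower and 3 higher in *Sox21* KO incisor, with a median log2 ratio of -0.18 (10 lower and 7 higher when scaled on the array median). At least 1.5-fold lower were *Manf*, a secreted ER stress protein, at -0.63, *Sec63*, which recruits BiP to the translocon, at -0.61, and *Hyou1*, the ER Hsp110, at -0.59, which is 3 of 17 genes against 2.99% of all measured genes. Scaled on the array median, 0 of the 17 were that much lower, against 2.02% of all measured genes. Of the 8 alternatives, *Manf* was past 1.5-fold under 7 and *Hyou1* and *Sec63* under 5 each. The dimmer probe of *Sec63* gave -0.01, and the *Hyou1* probe was dim, with signals of 82.2 and 56.1. *Clgn*, a testis-enriched relative of calnexin, was higher, with signals of 60.2 and 199.7 and a log2 ratio of 1.69.

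The genes that bring new chains into the ER and glycosylate them were also mostly lower. All 22 genes of translocation, signal peptide cleavage and N-glycosylation were measured, of which 17 were lower and 5 higher, with a median log2 ratio of -0.17 (16 and 6 when scaled on the array median). The lowest was *Sec11c*, a catalytic subunit of signal peptidase, at -0.44, and the highest was *Stt3b*, of the oligosaccharyltransferase, at 0.14, whose other probe gave -0.11. None of the 22 reached 1.5-fold (0 genes), where 2.99% of all measured genes were that much lower and 3.2% that much higher. For ER-associated degradation, the branch of *Herpud1*, 11 of 16 measured genes were lower and 5 higher, with a median of -0.20 (10 and 6 when scaled on the array median). *Os9*, a lectin that picks out misfolded glycoproteins, was lowest, with signals of 13343 and 9112 and a log2 ratio of -0.59, under 1.5-fold when scaled on the array median or by quantile, and *Edem1*, which delivers misfolded glycoproteins for degradation, was highest at 0.28. When all probes of a gene were averaged, the median of this list was -0.11.

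For disulfide isomerases and oxidases outside the 10 genes the median was -0.07 (0.031 when scaled on the array median), and 10 of 15 were lower and 5 higher (7 and 8), from the isomerase *Txndc5* at -0.34 to its membrane-bound relative *Tmx1* at 0.20. Procollagen folding genes had a median of -0.12, with 9 of 13 lower and 4 higher (7 and 6 when scaled on the array median). Among them *P4ha3*, a collagen prolyl hydroxylase subunit, read -0.78 on its brighter probe but -0.06 on the other, and *P4ha1* was highest at 0.35. Genes of COPII transport, which carries folded cargo onward to the Golgi, had a median of 0.00, with 8 of 17 lower and 9 higher (6 and 11 when scaled on the array median). The range was from *Surf4*, a cargo receptor, at -0.40 to *Sec24a*, a coat subunit, at 0.45, although the dimmer probes of *Sec24a* gave -0.43 and -0.11.

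**Figure D4:**
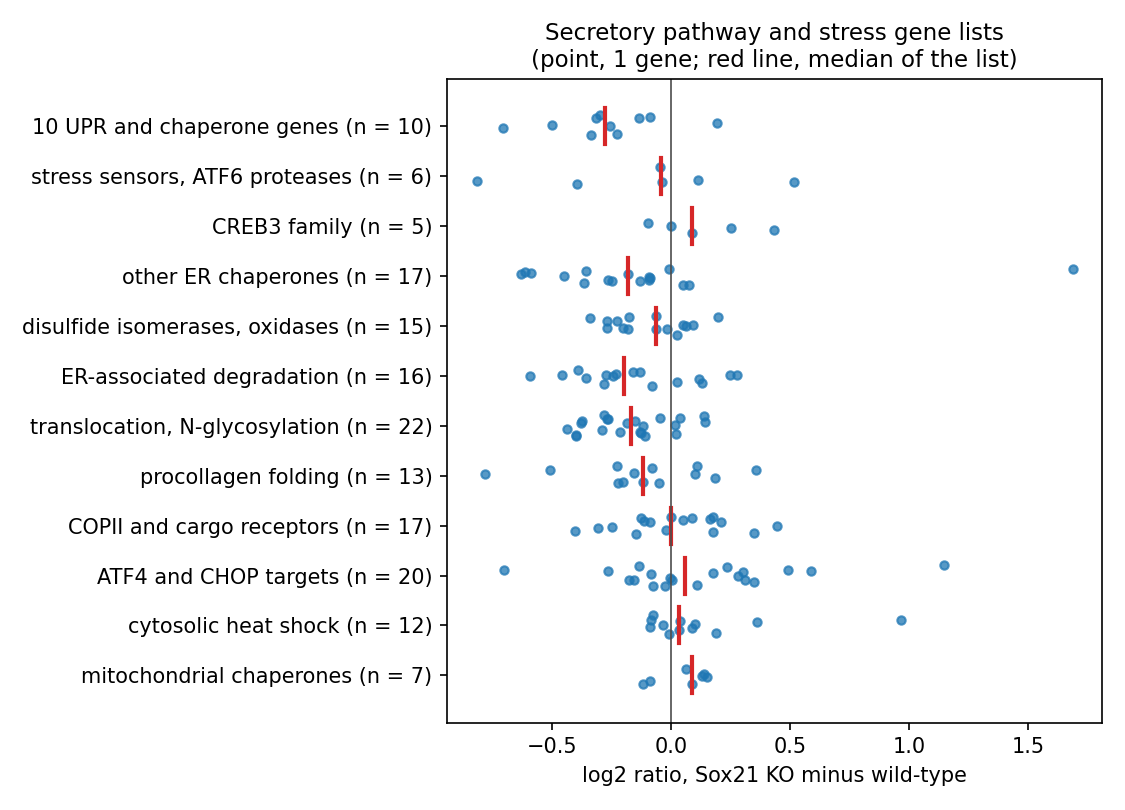
Log2 ratio (*Sox21* KO minus wild-type) of every measured gene of the 10 genes and of 11 related lists, 1 point per gene, with a red line at the median of each list and n as the number of measured genes. The medians of the 10 genes, the other chaperones, ER-associated degradation and translocation lie between -0.28 and -0.17. Procollagen folding, disulfide isomerases with oxidases, and stress sensors with ATF6 proteases follow at -0.12, -0.07 and -0.04. Those of COPII, ATF4 and CHOP targets, heat shock, mitochondrial chaperones and the CREB3 family lie between 0.00 and 0.09. Vertical scatter within a list has no meaning.

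The targets of ATF4 and CHOP, the arm of the response that deals with amino acid supply and stress, were lower about as often as all measured genes. Of 22 listed, 20 were measured, with 9 lower (45.0%, against 47.6%), 11 higher and a median log2 ratio of 0.06 (5 of 20 lower, against 30.7%, when scaled on the array median). At least 1.5-fold higher were 2 of the 20, against 3.2% of all measured genes (3 of 20 against 4.86% when scaled on the array median). The 2 were *Atf3*, also an immediate early gene, with signals of 62.5 and 142.4 and a log2 ratio of 1.15, and *Nupr1* at 0.59. *Nupr1*, a small stress-induced nuclear protein, was under 1.5-fold in 4 of the 8 alternatives. *Fgf21* alone was at least 1.5-fold lower, or 1 of 20 against 2.99% of all measured genes. It had a log2 ratio of -0.70, with dim signals of 48.6 and 30.7, and was under 1.5-fold with the normal-exponential background correction. Chaperones outside the ER were listed for comparison. Of 12 measured cytosolic heat shock genes, 5 were lower and 7 higher, with a median of 0.03, and of 7 mitochondrial chaperones and proteases 2 were lower and 5 higher, with a median of 0.09. Scaled on the array median, 0 of the 12 and 1 of the 7 were lower. *Hspa1a*, an inducible Hsp70, was highest of the cytosolic genes at 0.97, although its near-identical copy *Hspa1b* had no matched probe and the reading may be shared, and *Hsp90aa1* was lowest at -0.09. The mitochondrial genes ranged from *Clpp* at -0.12 to *Lonp1* at 0.15.

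Markers of the secretory cells in the sample were read beside these values. Their counts are to be read against all measured genes, of which 47.6% were lower, and 30.7% when scaled on the array median. Of 7 ameloblast markers, all measured, 5 were lower in *Sox21* KO incisor, with a median log2 ratio of -0.62, and the summed normalized signal was 3162 in wild-type and 2866 in KO. The log2 ratio was -1.89 for *Amtn*, -1.05 for *Klk4*, -0.65 for *Enam*, -0.62 for *Mmp20*, -0.23 for *Ambn*, 0.08 for *Amelx* and 0.63 for *Odam*. Of 4 odontoblast markers, 3 were higher (4 of 4 under 3 of the 8 alternatives), with summed signals of 119 and 122, at 0.93 for *Dmp1*, 0.79 for *Phex*, 0.06 for *Nes* and -0.01 for *Dspp*, whose dimmer probe gave 0.28. All 5 bone markers were higher (4 of 5 under 3 of the 8 alternatives), with summed signals of 450.3 and 528.9, at 0.82 for *Spp1*, 0.55 for *Ibsp*, 0.13 for *Bglap*, 0.11 for *Col1a1* and 0.01 for *Sp7*. At the probe used for each gene, *Amelx*, *Dspp*, *Nes*, *Sp7*, *Col1a1* and *Bglap* differed by less than the scanner error, and the other markers of these 3 cell types by more. The part of these cell types in the chaperone values was not tested, and with 1 array per genotype sample and genotype cannot be told apart. None of 6 salivary gland markers (*Prol1*, *Smgc*, *Dcpp1*, *Dcpp2*, *Bpifa2* and *Aqp5*) was well above background on either array (0 of 6). Of 5 plasma and B cell markers, *Cd79a* and *Cd79b* were measured at dim signals, with summed values of 0.467 and 0.341 after normalization and log2 ratios of -0.16 and -0.72, and *Jchain*, *Mzb1* and *Pou2af1* were not well above background.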

How the data were processed

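The authors labelled RNA of each incisor sample with Cy3, hybridized 1 array per genotype and deposited spot intensity values of Agilent Feature Extraction 10.7.3.1, in which background had been removed within the array. They also deposited the same values on a linear scale as a ratio to 1 number per array. Here, the processed signal was divided by the 75th percentile of all 62976 spots of its array, and log2 values were averaged over repeat spots. Left out were control spots and 267 spots marked as outliers, leaving 55679 probes. Of the spots other than controls, 49.7% in wild-type and 50.4% in KO were marked as well above background. Each gene is represented by its brightest probe well above background on both arrays, and the 10 genes by every probe. Reference symbols came from RefSeq for GRCm38.p6, by accession for 26298 probes, by symbol for 2044 and by older symbol for 355, and 26982 stayed unmatched. Probe coordinates are mm9, as the files give them, and exon or UTR annotation for that build was not used here.

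The gene lists and the 10 genes were chosen with earlier results of these data known. The text names all 10 genes, the highest and lowest gene of each list, genes at least 1.5-fold apart, all sensors, CREB3 genes and markers. *Lepre1l* could not be matched to a symbol. Alternatives were other scalings (the array median, the percentile over other sets of spots, quantile), the normal-exponential background model with an offset of 50, the deposited ratios, the mean over probes, no background requirement and a 2-fold threshold. With 2 arrays no test was possible, the number of arrays limits the precision, and the steps were tested on simulated data. Python 3.11.15, numpy 2.4.6, pandas 2.3.3, matplotlib 3.10.9, R 4.3.3 and limma 3.58.1 were used.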

Additional observations from a re-analysis of the deposited data

How the results depend on the processing

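The values of the 10 genes and the list medians were computed again under alternatives that each alter 1 choice, and so, chosen after seeing the data, were the counts of lower genes and of genes past 1.5-fold in each list and the values of the marker lists and ERSE genes. Other single genes were followed only for whether they were lower or past 1.5-fold within these counts. Scaling by the median of each array moved all genes together, by 0.096 on the log2 scale, and changed the share of measured genes that were lower from 47.6% to 30.7%. Under it the median log2 ratio was -0.18 for the 10 genes, 0.052 for the sensors, 0.19 for the CREB3 family, -0.085 for other chaperones, 0.031 for disulfide isomerases and oxidases, -0.10 for ER-associated degradation, 0.15 for ATF4 and CHOP targets, -0.073 for translocation and glycosylation, 0.10 for COPII, -0.023 for procollagen folding, 0.13 for heat shock and 0.18 for mitochondrial genes. The median of the 10 genes minus that of all measured genes was -0.29, which such a scaling cannot alter, and it was -0.28 under quantile normalization, -0.26 with the normal-exponential correction and -0.22 without the requirement on background. The mean over probes moved ER-associated degradation to -0.11. With 2-fold in place of 1.5-fold, 0 of the 10 genes were past the threshold on the lower side. Of the 10 genes, 8 or 9 were lower under each of the 8 alternatives, and *Dnajc3* ranged from -0.74 to -0.61. The other 108 of 122 recomputed values of main results moved by less than the SD between repeat spots or, for counts, by less than 1.5 times. Without the requirement on background, 1460 genes were at least 1.5-fold lower and 1298 higher, against 412 and 441, and with the normal-exponential background correction 212 and 172. By the scaling on the median these counts were 278 and 671. No paired analysis was possible because each genotype has 1 array.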

Other observations

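The promoter search also gave a set of genes chosen by sequence alone, after the values of the 10 genes had been seen. Across the reference, 37 genes had an ERSE in a promoter window, of which 18 were measured on both arrays. Of these 18 genes, 15 were lower and 3 higher in *Sox21* KO incisor, with a median log2 ratio of -0.11, where 47.6% of all measured genes were lower. The 18 include 4 of the 10 genes already described. Outside the 10 genes, 14 remained, with 11 lower, 3 higher and a median of -0.05. These counts depend on the scaling. On the array median, under which 30.7% of all measured genes were lower, 9 of the 18 were lower and 9 higher with a median of -0.014, and of the 14 there were 6 lower and 8 higher with a median of 0.046. The 14 include *Calr*, the ER lectin calreticulin, at -0.36, *Syvn1*, the ubiquitin ligase of ER-associated degradation, at -0.36, and *Derl3* at -0.13. *Canx*, calnexin, had -0.01, and *Pdia6* had -0.02 at its brighter probe but -0.44 at the other. *Alg12*, a mannosyltransferase of N-glycan assembly and on none of the lists, had -0.36, with dim signals of 72.0 and 57.9. *Xlr3b*, an X-linked lymphocyte-regulated gene, had -0.62, past 1.5-fold under 5 of the 8 alternatives, and *Gm6566*, *Spats2l*, *Pan2* and *Hnrnpa3*, also on none of the lists, had -0.33, -0.06, -0.04 and -0.02. The 3 higher genes were *Adcy3* at 0.76, *Acacb* at 0.47 and *Zfp57* at 0.08, also on none of the lists. Signals were dim for *Adcy3*, at 86.7 and 151.1, and for *Acacb*, at 94.2 and 134.7. *Adcy3* was under 1.5-fold with the normal-exponential background correction. These genes were named after their values were seen, and no test was run.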
